A study of Mus musculus with 9 samples.

Results

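The miR-15/16 family and the related pair of miR-103 and miR-107 were followed through the small RNA of exosomes, the vesicles that cells shed into their medium. The 8 members were picked by name: mmu-miR-15a-5p, mmu-miR-15b-5p, mmu-miR-16-5p, mmu-miR-195a-5p, mmu-miR-322-5p and mmu-miR-497a-5p of the miR-15/16 family, and mmu-miR-103-3p and mmu-miR-107-3p (mmu marks mouse and is left out below). They are 8 of 1101 mature miRNAs counted in at least 1 library, and all 8 were among the 453 tested. The exosomes were isolated from RAW264.7, a mouse macrophage cell line, by ultracentrifugation of medium that held fetal bovine serum. Per the labels, 3 libraries came from untreated cells, 3 from cells given silica for 24 h and 3 from cells given silica for 48 h. The silica dose and the culture time of the untreated cells are not stated in the labels, and all 9 libraries come from this 1 line.

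A miRNA guides the Argonaute protein to messenger RNAs that pair with its seed, the bases just after its first one, and lowers their translation and stability. The miR-15/16 family is known for restraining cell cycle entry and survival, through targets such as the D-type cyclins and Bcl2, and its loss is linked to lymphoid leukaemia. The genes of miR-103 and miR-107 lie inside the pantothenate kinase genes and their miRNAs are known for regulating Dicer and insulin signalling.

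The mature sequences, from the RefSeq table for GRCm38.p6, are shown because the grouping of the members rests on them. Capitals mark the seed, bases 2 to 8.
miR-15a-5p: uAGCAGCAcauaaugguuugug
miR-15b-5p: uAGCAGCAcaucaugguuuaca
miR-16-5p: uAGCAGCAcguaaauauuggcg
miR-195a-5p: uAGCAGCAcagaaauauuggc
miR-322-5p: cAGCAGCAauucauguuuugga
miR-497a-5p: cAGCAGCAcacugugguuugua
miR-103-3p: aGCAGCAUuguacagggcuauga
miR-107-3p: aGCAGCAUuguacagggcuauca
The 6 members of the miR-15/16 family have the same seed, and so does the pair of miR-103-3p and miR-107-3p. The core GCAGCA is in all 8, starting at base 3 in the first family and at base 2 in the second, and 1.43% of the 1679 mature miRNAs in that table hold it anywhere. The first family thus pairs with a site that is offset by 1 base from that of the second. Outside the seed they differ. Counted over the whole sequence, seed included, miR-16-5p and miR-195a-5p match at 19 of 21 positions, while miR-16-5p and miR-497a-5p match at 11 of 22. The sequence of miR-107-3p differs from that of miR-103-3p by G22C alone, counted from the 5′ end with the base of miR-103-3p first. The labels do not say to which of them a read matching both was counted, so the split between these 2 is uncertain. The motifs GGAG and CCCU, both described in miRNAs sorted into exosomes, were searched on the RNA strand and are in 0 of the 8 members, against 14.2% and 11.4% of the 1679. These letters being absent says nothing about how the members enter vesicles. The table holds 4 further miRNAs with the miR-15/16 seed (miR-195b, miR-6342, miR-6353 and miR-6419), and none of the 9 libraries listed a read for any of them.

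The genes of the members are spread over several chromosomes (GRCm38, with GENCODE M21 genes). The mature miR-15a-5p lies at chr14:61632075-61632096 and 1 copy of miR-16-5p at chr14:61631936-61631957, both on the minus strand in an intron of Dleu2, a noncoding RNA gene. The second copy of miR-16-5p, at chr3:69009918-69009939, and miR-15b-5p, at chr3:69009775-69009796, lie on the plus strand in an intron of Smc4, a condensin subunit gene. On the plus strand between genes lie miR-497a-5p at chr11:70234730-70234751 and miR-195a-5p at chr11:70235062-70235082. On the minus strand between genes lies miR-322-5p at chrX:53054306-53054327. The copies of miR-103-3p lie in introns of Pank3 (chr11:35782447-35782469) and Pank2 (chr2:131288103-131288125), and miR-107-3p in an intron of Pank1 (chr19:34820700-34820722, minus strand).

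The libraries held 2158418 to 8331451 reads of mature miRNA. Levels are given as CPM, the counts scaled to a common library total of mature miRNA with TMM factors. The members are alike in length, 21 to 23 bases. How evenly their sequences were captured was not measured, so orders and ratios between members are those of the counts. CPM gives shares, so fewer vesicles that carry a miRNA and less of it per vesicle cannot be told apart. Before any comparison, untreated library 2 and 48 h library 2 must be singled out. An earlier look at these data set them apart. They listed the most mature miRNAs, 829 and 912, against 486 to 713 in the others, and 48 h library 2 was also the deepest. The tests between groups are given with and without them below.

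The most abundant member by counts was miR-16-5p, with a mean of 15373 CPM over the 9 libraries. It stood at 8541, 32757 and 10471 CPM in untreated libraries 1, 2 and 3, at 8557, 9438 and 9574 CPM at 24 h and at 10490, 41872 and 6654 CPM at 48 h. Thus 7 of the 9 libraries were between 6654 and 10490 CPM, and library 2 of the untreated and of the 48 h group stood at over 3 times any of them. In each library miR-16-5p made up 73.3% to 84.6% of the counts of the 6 seed-sharing members.

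Next came miR-15b-5p, which shares the Smc4 intron with miR-16-5p. It stood at 1421, 6935 and 1697 CPM in untreated, at 1135, 2332 and 1581 CPM at 24 h, and at 3182, 6233 and 1818 CPM at 48 h. The same pair of libraries was highest, but 48 h library 1 stood above the remaining 6 as well. Its partner miR-15a-5p, from the Dleu2 intron, stood at 209.6, 2608 and 521 CPM in untreated, at 170.2, 249 and 145 CPM at 24 h, and at 349.9, 2410 and 366 CPM at 48 h. All 24 h libraries were below all 48 h libraries, while untreated library 1 fell inside the range of 24 h.

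The X-linked miR-322-5p, the mouse counterpart of human miR-424, stood at 282, 1111 and 287 CPM in untreated, at 224, 246 and 278 CPM at 24 h, and at 248, 788 and 187 CPM at 48 h. Outside the same pair of libraries its range was narrow, 187 to 287 CPM. From the other pair of neighbouring genes, miR-497a-5p stood at 21.2, 150.1 and 32.2 CPM in untreated, at 24.02, 23.7 and 24.4 CPM at 24 h, and at 43.05, 179.9 and 22.3 CPM at 48 h. The scarcest of this family, miR-195a-5p, stood at 6.70, 11.4 and 5.22 CPM in untreated, at 3.10, 3.98 and 1.04 CPM at 24 h, and at 4.04, 27.97 and 2.53 CPM at 48 h. Its 24 h values rest on 12, 24 and 2 counts and all lay below all untreated ones.

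Of the second family, miR-103-3p stood at 199, 1120 and 112 CPM in untreated, at 127, 157 and 115 CPM at 24 h, and at 177, 845 and 125 CPM at 48 h. It followed the same picture as miR-16-5p, at a level 29.3 to 93.7 times lower within a library. The count of miR-107-3p was 3, 28 and 0 in untreated, 0, 0 and 5 at 24 h, and 0, 28 and 0 at 48 h. A count of 0 allows up to 3 counts, or 0.497 to 0.867 CPM in the 5 libraries without one, a limit that covers counting error only. In 48 h library 2 it was at least 3.38-fold above that limit in 48 h library 1.

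**Figure D1:**
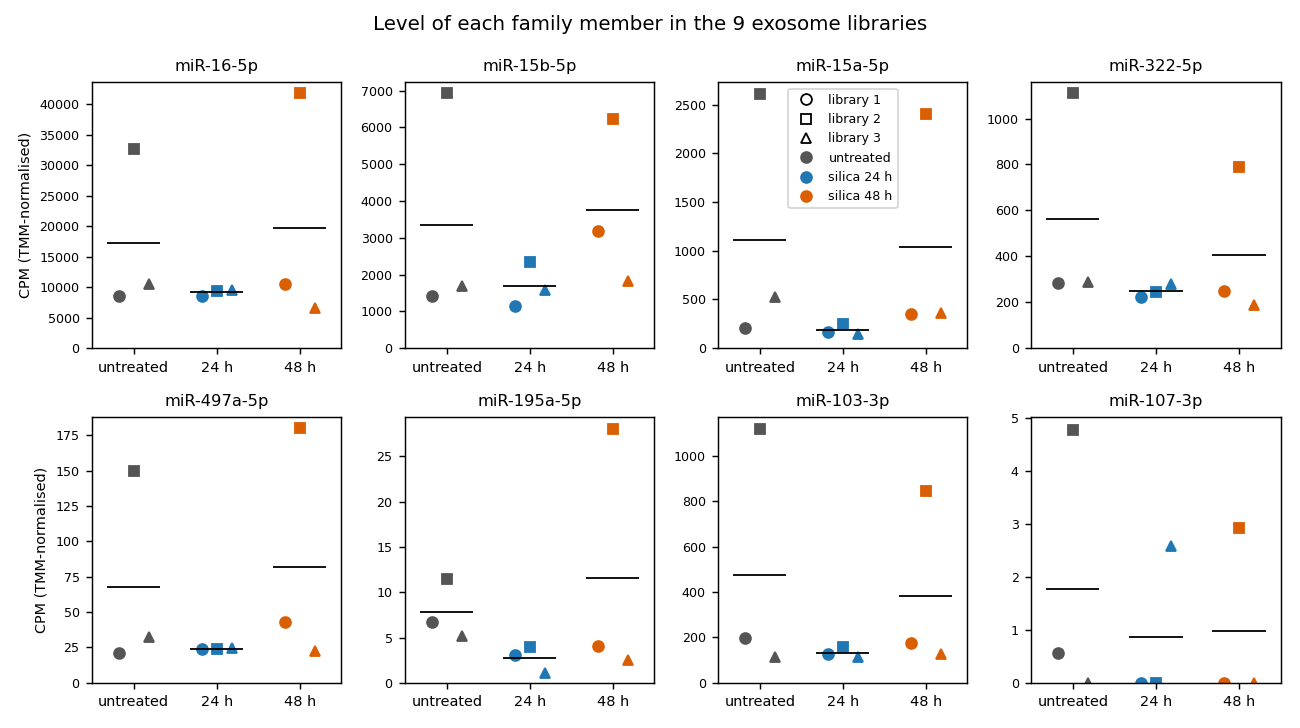
Level of each member (CPM, linear axis from 0, own scale per panel) in the untreated, 24 h and 48 h groups; each point is 1 library, with its number given by the symbol, and bars are group means. Library 2 of the untreated and of the 48 h group stands above the rest in every panel, and in the panel of miR-16-5p the other 7 libraries sit between 6654 and 10490 CPM.

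In order of mean level, miR-16-5p, miR-15b-5p and miR-15a-5p (781 CPM) were followed by miR-322-5p (406 CPM), miR-103-3p (331 CPM), miR-497a-5p (57.9 CPM), miR-195a-5p (7.34 CPM) and miR-107-3p (1.21 CPM). The order of miR-16-5p over miR-15b-5p and of miR-15b-5p over miR-15a-5p held in 9 of 9 libraries. That of miR-15a-5p over miR-322-5p held in 6 of 9 and that of miR-322-5p over miR-103-3p in 7 of 9, so these neighbours did not differ beyond their spread. The order of miR-103-3p, miR-497a-5p and miR-195a-5p held in 9 of 9 libraries, and that of miR-195a-5p over miR-107-3p in 8 of 9. Together, the 6 miR-15/16 members took 5.06% of mature counts in untreated library 2 and 5.9% in 48 h library 2, and 0.896% to 1.39% in the other 7. For miR-103-3p with miR-107-3p these shares were 0.131% and 0.0971%, against 0.0105% to 0.0188%.

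How far the 2 libraries stood out was measured within their groups, against the higher of the 2 other libraries. In untreated library 2 the ratio was 3.13 for miR-16-5p, 4.09 for miR-15b-5p, 5.01 for miR-15a-5p, 5.63 for miR-103-3p and 1.71 for miR-195a-5p, and it was over 2 for 7 of 8 members. Of all 453 tested miRNAs, 25.2% were over 2 there, and the median ratio was 0.884 against 4.37 for the members. In 48 h library 2 the ratio was 3.99 for miR-16-5p, 1.96 for miR-15b-5p, 6.59 for miR-15a-5p, 6.92 for miR-195a-5p and 4.77 for miR-103-3p, with 7 of 8 members and 21.9% of all tested over 2. For 24 h library 2 it was 0 of 8 members and 11.9% of all tested. The depth of untreated library 2, 5043493 mature counts, lay between those of untreated libraries 3 and 1 (4414054 and 5712322), and 48 h library 2 was the deepest of all 9, with 8331451. The part of depth in these ratios was not tested.

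**Figure D2:**
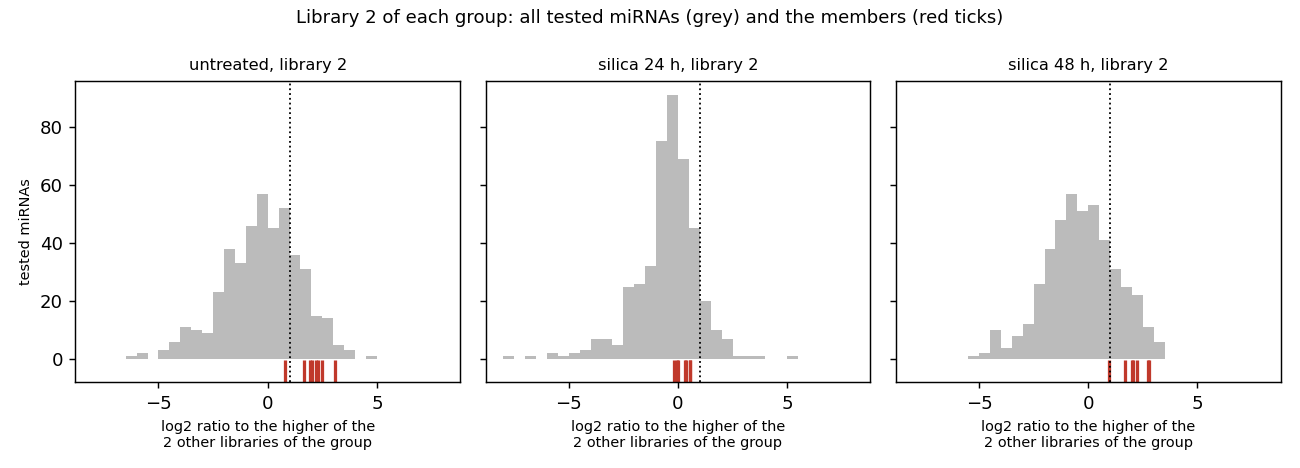
Histogram of tested miRNAs by the log2 ratio of library 2 to the higher of the 2 other libraries of its group, in 3 panels by group; red ticks are the members and the dotted line is a ratio of 2 (members or miRNAs with no count on either side of the ratio are not drawn). The ticks lie mostly right of the line in the untreated and the 48 h panels, where the medians of all tested miRNAs are 0.884 and 0.79, and left of it at 24 h.

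Markers of possible sources were read beside this. The 7 macrophage and myeloid miRNAs were counted in all 9 libraries, with a summed level of 75718 to 105738 CPM in untreated, 71484 to 84155 CPM at 24 h and 86023 to 108522 CPM at 48 h. Among them the haematopoietic miR-142a-3p stood at 187 CPM in untreated library 2 and 241 CPM in 48 h library 2, against 14.5 to 49.98 CPM in the other 7. The leading one by mean level over the 9 libraries, miR-146a-5p, was lowest in these 2 libraries, at 19534 and 26662 CPM. In contrast, miR-21a-5p was highest in these 2, at 54742 and 67880 CPM, and stood above miR-146a-5p there. Also highest there was miR-142a-5p, at 153.8 and 226 CPM. For miR-223-3p, miR-155-5p and miR-342-3p the 2 highest values did not both fall there. The 5 serum and red blood cell miRNAs, of which miR-144-3p and miR-144-5p were at or near 0, summed to 406 to 1858 CPM in untreated, 2130 to 5643 CPM at 24 h and 1197 to 1723 CPM at 48 h. The lowest sum, 406 CPM, was that of untreated library 2, and the sums of the 24 h libraries were above all others. These sums come mostly from miR-451a and miR-122-5p. All 24 h libraries stood above all others for miR-451a (24 h against untreated, edgeR adjusted p = 0.386). For miR-122-5p they overlapped, at 1252 CPM in 24 h library 2 against 1295 CPM in untreated library 3. The scarce miR-486a-5p had a log2 fold change of -0.13 at 24 h against untreated. The 5 mesenchymal and endothelial miRNAs summed to 397 to 2222, 612 to 1584 and 519 to 1006 CPM in the same order of groups, and the 6 epithelial ones to 101 to 173, 61.2 to 119 and 126 to 185 CPM. In untreated, miR-145a-5p was at 0 in all 3 libraries. The mesenchymal sums come mostly from miR-126a-3p and miR-199a-3p, the latter at 1526 CPM in untreated library 3. A scarcer one, miR-143-3p (chosen after its values were seen), stood at 24.6, 6.32 and 14.8 CPM in untreated, at 51.4, 57.8 and 96.9 CPM at 24 h, and at 22.8, 35.8 and 29.03 CPM at 48 h. All its 24 h libraries lay above all others. Its log2 fold change at 24 h against untreated was 2.17 ± 0.63 (SE, edgeR adjusted p = 0.386) over all libraries. Without the 2 that stand apart it was 1.81 ± 0.54 (SE, edgeR adjusted p = 0.344). The others tested on its list did not separate the groups over all libraries: miR-214-3p stood at 1.65, miR-126a-3p at 0.21 and miR-199a-3p at -1.10. The part of such sources, serum in the medium included, in the members' levels was not tested.

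At 24 h of silica against untreated cells, 8 of 8 members had a fitted fold change below 1 and 0 of 8 passed the test. The median log2 fold change was -1.40 for the members and -0.07 for all tested miRNAs, of which 53.4% were below 0. In the quasi-likelihood test of edgeR, adjusted by Benjamini-Hochberg, 0 of the 453 passed an adjusted p of 0.05, a background of 0%. At an unadjusted p under 0.05 there were 46 (10.2%), among them 1 of the 8 members, miR-15a-5p, and DESeq2 called 4 of 441 (0.907%), no member among them. With the replicate number as a block, edgeR called 3 of 453 and again no member.

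The size and error of these differences were as follows. The fit put miR-15a-5p at a log2 fold change of -2.56 ± 1.00 (SE), from 1113 ± 1304 CPM in untreated to 188 ± 54.3 CPM at 24 h (SD, n = 3; edgeR adjusted p = 0.437). The difference for miR-103-3p was -1.84 ± 0.94 (SE), and for the other tested members it ran from -1.50 for miR-497a-5p to -0.91 for miR-16-5p, all with an edgeR adjusted p of 0.543 to 0.874. All 24 h libraries lay below all untreated ones for 2 of 8 members, miR-195a-5p and miR-322-5p, where 6.18% of all tested miRNAs did, and above for 0 of 8, where 10.4% did. For miR-322-5p the gap was small, from 278 to 282 CPM, with a log2 fold change of -1.17 ± 0.73 (SE).

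Most of this difference came with untreated library 2. Without it and 48 h library 2, the log2 fold change was -0.04 for miR-16-5p, 0.12 for miR-15b-5p, -0.18 for miR-322-5p, -0.14 for miR-497a-5p and -0.21 for miR-103-3p. A pair of values stayed further from 0 (both chosen after they were seen): miR-15a-5p at -0.94 ± 0.50 and miR-195a-5p at -1.08 ± 1.01 (SE), with an edgeR adjusted p of 0.584 and 0.804. The members' median was then -0.18 over the 7 that could be fitted, and 0.13 over all miRNAs. Only with no filter on low counts did a member pass: miR-15a-5p at -2.60 with an edgeR adjusted p of 0.0134, in a fit that called 7 miRNAs. Over the other alternatives run on all libraries its log2 fold change lay between -2.74 and -1.76.

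After 48 h of silica 4 members were above and 4 below 1-fold of untreated, and 0 of 8 passed. The log2 fold change was 0.19 ± 0.68 for miR-16-5p, 0.16 ± 0.68 for miR-15b-5p, -0.09 ± 0.95 for miR-15a-5p and -0.32 ± 0.91 for miR-103-3p (SE), with an edgeR adjusted p of 0.997 for each. Among the others, miR-195a-5p stood at 0.57 and miR-322-5p at -0.46. The median was 0.03 for the members and 0.03 for all tested, of which 47.5% were below and 52.5% above 0. In 0 of 8 members were the groups separate, against 1.55% of all tested with 48 h lower and 2.21% with 48 h higher. edgeR called 0 of 453 (0%), with 4 (0.883%) at an unadjusted p under 0.05, none of them a member, and DESeq2 called 1 of 450 (0.222%). Each group holds 1 of the libraries that stand apart, and the sign of the members turned on them. Without untreated library 2 all 8 members were higher at 48 h (median 1.30), as were 57.5% of all miRNAs in that fit (median 0.23). Without 48 h library 2 all 8 were lower (median -1.35), as were 56.9% of all miRNAs in that fit (median -0.14). Without both, miR-15b-5p stood at 0.68 ± 0.49 and miR-195a-5p at -0.86 ± 1.13 (SE). In that fit 5 of the 7 fitted members were below 0, against 47.6% of all miRNAs.

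Between 48 h and 24 h of silica, 8 of 8 members were above 1-fold and 0 of 8 passed, with a median log2 fold change of 1.34 against 0.14 for all tested, of which 54.1% were above 0. This comparison and that of 24 h with untreated share the 24 h libraries. The largest value was that of miR-15a-5p, 2.47 ± 1.00 (SE; edgeR adjusted p = 0.438), followed by miR-195a-5p at 2.05 ± 1.01 and miR-497a-5p at 1.77 ± 0.90. Of the 8, 1 had all 48 h libraries above all 24 h ones, miR-15a-5p, where 10.4% of all tested did. edgeR called 0 of 453 (0%), with 44 (9.71%) and 1 of the 8 members, miR-15a-5p, at an unadjusted p under 0.05, and DESeq2 called 6 of 450 (1.33%), with no member among them. Without the 2 libraries that stand apart, miR-15a-5p was at 0.91 ± 0.50 and miR-15b-5p at 0.56 ± 0.44 (SE). In that fit 5 of the 7 fitted members were above 0, against 45.5% of all miRNAs. With no filter on low counts miR-15a-5p passed at 2.65 (edgeR adjusted p = 0.00986), in a fit that called 16 miRNAs.

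**Figure D3:**
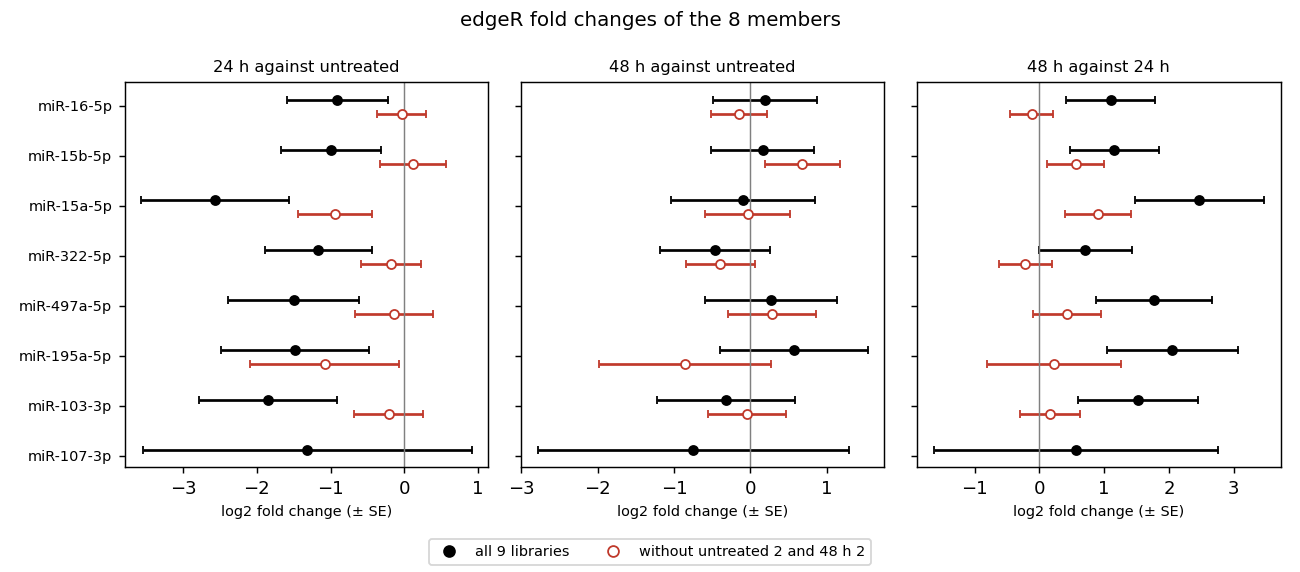
edgeR log2 fold change (horizontal axis, bars are ± SE) of each member in the 3 comparisons, over all 9 libraries (black) and without untreated library 2 and 48 h library 2 (red, open; miR-107-3p could not be fitted there). At 24 h against untreated all black points lie left of 0, while the red ones lie near 0 other than miR-15a-5p at -0.94 and miR-195a-5p at -1.08.

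The shares within the family were read beside its level. In untreated, miR-15a-5p made up 2.0%, 5.98% and 4.0% of the miR-15/16 counts, at 24 h 1.68%, 2.03% and 1.25%, and at 48 h 2.44%, 4.68% and 4.04%. It was thus lower at 24 h than at 48 h in all libraries, with 24 h library 2 just inside the untreated range. For miR-15b-5p the shares were 13.0% to 15.9% in untreated, 11.2% to 18.97% at 24 h and 12.1% to 22.2% at 48 h, and the groups overlapped. Over the 7 libraries other than the 2 that stand apart, the share of miR-15a-5p ran from 1.25% to 4.04% and that of miR-15b-5p from 11.2% to 22.2%, while the family took 0.896% to 1.39% of mature counts.

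The other arm of each hairpin, mostly the strand that is discarded, gave a second reading. All 10 such arms had a read somewhere and 7 could be tested: at 24 h against untreated 1 was higher and 6 lower, at 48 h against untreated 4 higher and 3 lower, and at 48 h against 24 h 7 higher, with 0 past the edgeR threshold in each. Without the 2 libraries that stand apart 6 could be fitted, with 3 higher and 3 lower in both comparisons with untreated and 4 higher and 2 lower at 48 h against 24 h, again 0 past the threshold. The most abundant, miR-15b-3p, stood at 176, 458 and 349 CPM in untreated, at 229, 285.5 and 234 CPM at 24 h, and at 260.3, 517 and 267.7 CPM at 48 h. It was highest in the same 2 libraries as its 5p arm. The ratio of 5p to 3p counts was highest in untreated library 2, at 15.1, while that of 48 h library 2, 12.1, lay just below that of 48 h library 1, 12.2, and the other 6 ran from 4.86 to 8.17. The 2 hairpins of miR-16-5p have separate 3p arms. Over the 9 libraries, miR-16-2-3p from the Smc4 intron had 439 counts and miR-16-1-3p from the Dleu2 intron had 1. These are 0.0513% of the counts of both arms, and they do not give the part of each hairpin in miR-16-5p. By library miR-16-2-3p had 2, 75 and 83 counts in untreated, 1, 18 and 0 at 24 h, and 20, 215 and 25 at 48 h. Its log2 fold change at 24 h against untreated was -3.11 ± 1.41 (SE; edgeR adjusted p = 0.482), and untreated library 1 fell inside the 24 h range. Without the 2 libraries that stand apart it was -2.95 ± 1.61 (SE; edgeR adjusted p = 0.584), while miR-15a-3p stood at 0.28 ± 1.20 (SE).

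The arms of miR-195a differed in where they were highest. In 48 h library 3 miR-195a-3p had 39 counts and miR-195a-5p 11, in 24 h library 3 it was 13 and 2, and in untreated library 2 it was 8 and 67. The 3p arm stood at 1.37 CPM in untreated library 2, its lowest value, where the 5p arm stood at 11.4 CPM. Both arms of miR-107 were highest in the 2 libraries that stand apart, miR-107-5p at 9.22 CPM in untreated library 2 and 11.5 CPM in 48 h library 2, against 0 to 2.98 CPM in the others. Over all libraries the counts of miR-107-5p summed to 225 and those of miR-107-3p to 64, whereas miR-103-3p had 18996 and the 2 arms miR-103-1-5p and miR-103-2-5p had 111 together. The sequence of miR-107-5p differs from that of miR-103-2-5p by C16U alone, counted from the 5′ end, so these splits share the limit named for miR-107-3p.

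**Figure D4:**
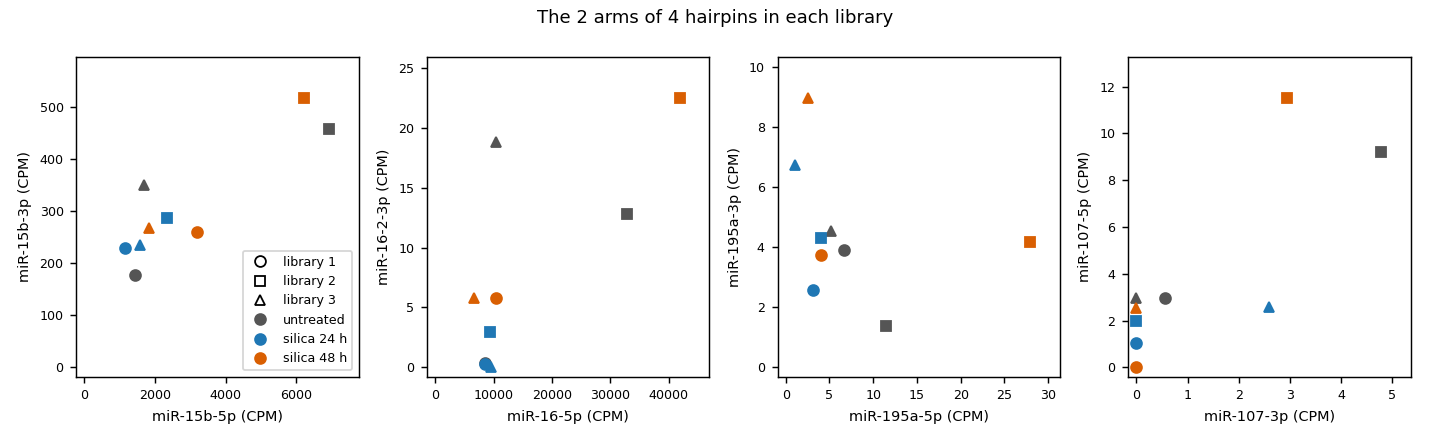
Levels of both arms (CPM, linear axes) of the miR-15b, miR-195a and miR-107 hairpins, and of miR-16-5p with miR-16-2-3p. Each point is 1 library, with colour for the group and symbol for the library number. The miR-16-5p axis holds reads of both miR-16 hairpins, which share that sequence. The upper right of the miR-15b panel holds untreated library 2 and 48 h library 2, while in the miR-195a panel untreated library 2 has the lowest 3p level, 1.37 CPM.

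The miRNAs that neighbour miR-322 on the X chromosome (miR-503, miR-351, miR-542 and miR-450, both arms where listed) belong to the same cluster. All 9 on this list had reads and 7 could be tested. At 24 h against untreated 2 were higher and 5 lower (median log2 fold change -0.42), at 48 h against untreated 3 higher and 4 lower (-0.04), and at 48 h against 24 h 6 higher and 1 lower (0.42), with 0 past the edgeR threshold. Without the 2 libraries that stand apart the median of these 7 was -0.08, 0.03 and -0.03 in the same order, with 0 past the threshold. The most abundant was miR-542-5p, at 86.4, 154 and 89.7 CPM in untreated, 78.5, 77.05 and 91.2 CPM at 24 h, and 85.5, 136.5 and 76.5 CPM at 48 h, again highest in the 2 libraries that stand apart. Its neighbour miR-351-5p stood at 30.5, 71.4 and 15.9 CPM in untreated, 53.2, 77.7 and 60.6 CPM at 24 h, and 93.9, 101 and 32.2 CPM at 48 h, and miR-450a-5p, at 13.3 CPM in untreated library 2, had its lowest untreated value there. Also highest in the 2 libraries that stand apart were miR-351-3p (53.1 and 27.1 CPM), miR-450b-5p (27.3 and 39.4 CPM) and the scarce miR-503-5p and miR-542-3p. The 2 highest values of miR-351-5p, miR-450a-5p, miR-503-3p and miR-450b-3p did not both fall there. The neighbours were thus split, with some following miR-322-5p in these libraries and some not.

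Over the 9 libraries, the log2 CPM of the 7 members other than miR-107-3p correlated with each other at r = 0.739 to 0.98 (median 0.905 over 21 pairs). Without the 2 libraries that stand apart, over 7 libraries, r ran from -0.11 to 0.775 with a median of 0.212. These values describe libraries that share depth and scaling and carry no test. By the same measure, the 5 miRNAs outside the families most like miR-16-5p were miR-20a-5p (r = 0.978), miR-340-5p (0.973), miR-19b-3p (0.971), miR-18a-5p (0.965) and miR-301b-3p (0.957). Those most like miR-103-3p were miR-20a-5p (0.983), miR-99a-3p (0.975), miR-18a-5p (0.967), miR-17-5p (0.958) and miR-301a-3p (0.941). As an example, miR-20a-5p, of the miR-17-92 cluster, stood at 176, 1208 and 142 CPM in untreated, 114, 185 and 131 CPM at 24 h, and 203, 1195 and 99.7 CPM at 48 h, so it too was highest in the same 2 libraries.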

How the data were processed

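Small RNA of exosomes was sequenced in 9 libraries in 3 groups of 3. Per the file headers, each deposited table gives the count of reads per small RNA and a TPM column, which equals RPM of all counted reads as deposited and was not tested. Per the submitters' processing notes Trim Galore, Bowtie, HTSeq and mm10 were used; versions are not given there. Rows of class mature were used, and a miRNA absent from a table was taken as 0 counts. Per library, 7706904 to 18654539 reads were counted, of which 2158418 to 8331451 were mature.

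Counts were tested with edgeR 4.0.16 (quasi-likelihood, TMM, filterByExpr with a minimum count of 10, 1 fit over 9 libraries, 6 residual degrees of freedom, Benjamini-Hochberg over 453 miRNAs, threshold 0.05). The fit was tested on simulated data. The square root of the common dispersion, 0.756, says how far libraries of 1 group typically differ, as a share of the mean. Alternatives were RLE and upper-quartile factors, all counted reads as library size, DESeq2 1.42.0, no filter, 2 groups per fit, a replicate block, libraries left out and miR-103-3p with miR-107-3p added. Named are the members, their other arms, their cluster neighbours, seed relatives, marker lists and the 5 miRNAs most correlated with miR-16-5p and with miR-103-3p. Members and lists were chosen with earlier results of these data known.

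Across miRNAs, deviations of same-numbered libraries from their group means had r of 0.136, 0.439 and 0.149 between 24 h and untreated. Between 48 h and untreated r was 0.152, 0.636 and 0.315. Library 3 of 24 h and of 48 h correlated better with untreated library 1 (0.16 and 0.36) than with untreated library 3. The numbers thus paired the libraries in part only. The main fit used no pairs, and the replicate block was an alternative. Any pairing rests on these correlations alone, since the labels state none.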

Additional observations from a re-analysis of the deposited data

How the results depend on the processing

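No member passed the edgeR threshold in any setting but the fit without a filter on low counts, where miR-15a-5p passed in 2 comparisons. Called miRNAs at 24 h against untreated went from 0 to 1 with upper-quartile factors or the 2 compared groups only, 4 with DESeq2, 7 without a filter and 3 with the replicate block. For 48 h against untreated they went to 1 with DESeq2 and 1 without a filter, and at 48 h against 24 h to 6 with DESeq2, 16 without a filter and 3 with the replicate block; leaving out 1 library gave 0 to 1, 0 and 0 to 1. The block changed no other call. Between 48 h and 24 h too the numbers did not pair all libraries, with r of -0.07, 0.289 and 0.253. Library 1 of neither group correlated best with its own number. Lower members at 48 h against untreated went from 4 to 2 with all counted reads as library size, and from 0 to 8 over the libraries left out. Lower members at 24 h were 6 to 8, and higher members at 48 h against 24 h were 5 to 8 over the libraries left out and 5 without both libraries that stand apart.

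Signs turned without both of those for miR-15b-5p at 24 h (0.12), for miR-16-5p (-0.15) and miR-195a-5p (-0.86) at 48 h against untreated, and for miR-16-5p (-0.12) and miR-322-5p (-0.21) at 48 h against 24 h. In 48 h against untreated miR-15a-5p turned to 0.14 with all counted reads as library size and 0.054 without a filter, and miR-195a-5p to -0.035 with the replicate block. In 48 h against 24 h miR-107-3p turned to -0.0015 with upper-quartile factors and -0.95 with the replicate block. Leaving out 1 library, the log2 fold change at 24 h against untreated ran from -1.47 to 0.14 for miR-15b-5p and -6.32 to 1.27 for miR-107-3p. At 48 h against untreated it ran from -1.71 to 1.53 for miR-15a-5p, -0.48 to 1.28 for miR-15b-5p, -1.06 to 1.07 for miR-16-5p, -1.28 to 1.08 for miR-195a-5p, -1.42 to 0.54 for miR-322-5p, -1.12 to 1.63 for miR-497a-5p, -1.73 to 1.32 for miR-103-3p and -6.06 to 1.8 for miR-107-3p. Between 48 h and 24 h it ran from -0.11 to 1.61 for miR-16-5p, -0.21 to 1.14 for miR-322-5p and -4.73 to 5.59 for miR-107-3p. The extremes of miR-107-3p are fitted values against 0 counts and no bounds.

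The median of all miRNAs moved by scaling: at 24 h against untreated it was -0.07 in the analysis as reported, 0.05 with upper-quartile factors and -0.21 with all counted reads as library size, and the members stayed below it each time (medians -0.96 and -1.56). Between 48 h and 24 h it was 0.14, and 0.01 and 0.36. The fits with all counted reads as library size, with 2 groups or without both libraries dropped miR-107-3p. Adding the counts of miR-107-3p to miR-103-3p changed no call. Counts under 30 in most libraries limit miR-195a-5p, miR-107-3p and the other arms apart from miR-15b-3p.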

Other observations

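The tables also count reads on precursor families of Rfam, a class kept apart from the mature miRNAs and given here as RPM of all counted reads. The mir-16 precursor family stood at 169, 237 and 139.6 in untreated libraries 1, 2 and 3, at 104, 139.8 and 77.2 at 24 h, and at 155.5, 329 and 96.4 at 48 h. The family of the mir-103 and mir-107 precursors stood at 22.8, 38.4 and 13.2 in untreated, at 5.96, 19.5 and 7.79 at 24 h, and at 11.97, 39.3 and 18.4 at 48 h. Both were highest in untreated library 2 and 48 h library 2, as the mature members were, and by less than for mature miR-16-5p.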
